A study of Anser cygnoides with 9 samples.

Results

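Cultured goose granulosa cells given a GnRH antagonist were compared with blank cells. The members of this comparison were the genes of the deposited expression table whose level was at or above 1 TPM in 3 or more of the 6 antagonist and blank libraries, where TPM is an expression level corrected for transcript length and scaled to each library's total. Of 1371 genes in the table, 821 met this rule, and 550 did not, 60 of them with 0 TPM in every antagonist and blank library. The third-highest TPM over the 6 libraries was 1.00 for CARS2, just inside the rule, and 0.998 for FBXO21, just outside it. In all, 8 of the 821 genes passed the rule with every blank library under 1 TPM, so their level with the antagonist let them in, and 5 of the 8 are among the genes that passed the test below. No gene passed with every antagonist library under 1 TPM.

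Gonadotropin-releasing hormone (GnRH) is the hypothalamic decapeptide that drives pituitary release of LH and FSH, and GnRH and its receptor are also found in the ovary. An antagonist occupies the receptor and blocks it without activating it, while an agonist activates it. Granulosa cells line the follicle around the oocyte, produce progesterone and other steroids, and in birds surround the yolk-filled follicles that are arranged in a size hierarchy.

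The antagonist cells were ovarian granulosa cells treated with cetrorelix acetate, 3 libraries. A second group of 3 libraries was treated with the agonist alarelin acetate and is used here for the estimate of spread and for side values. The blank group, labelled as the control, was 3 libraries of cells of the same kind. All came from Sichuan white geese (Anser cygnoides) 40 weeks old, with ovaries taken 2 hours before laying; the labels give small and large yellow follicles as the tissue, and the design text gives preovulatory follicles together with pre-hierarchical ones of 4 to 12 mm. The design text says that several concentrations were tried in proliferation assays and the best was used; no dose, exposure time or vehicle is stated. The comparison asked which listed genes differ between cells given the antagonist and blank cells, and blockade of the GnRH receptor was not measured. The labels do not tell whether replicate libraries stem from different birds or culture wells, and each p-value therefore reflects library-to-library spread, which may be technical. In bulk RNA, fewer cells of a type and less RNA per cell cannot be told apart.

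TPM keeps no read depth, so depth per library is unknown. With the antagonist the listed genes held 2.95% to 3.10% of a library's TPM, against 3.18% to 3.26% in blank cells. Of 20 granulosa markers, FST (follistatin) was the only entry in the table, at 51.7 to 53.4 TPM with the antagonist and 48.0 to 53.7 TPM in blank cells. TCF21, the theca marker present, had 0 to 0.656 TPM with the antagonist and 0.265 to 0.776 TPM in blank cells. The oocyte markers ZP1 and ZAR1 summed to 0.918 to 1.87 TPM with the antagonist and 0.967 to 2.13 TPM in blank cells, and CDH5 of endothelium stayed at or under 0.0897 TPM in every one of the 6 libraries. The marker lists for leukocytes, blood cells, fibroblasts and epithelium had no entry in the table and were not analysed here, and neither were the 41 entries of the list on GnRH receptor signalling. Library descriptions hold 3 codes, such as H77KGDMXX, which are read here as flow cells. Antagonist replicates 1 and 3 shared flow cell H77KGDMXX with blank replicate 1, antagonist replicate 2 was on H75K3DMXX, and blank replicates 2 and 3 were on H773TDMXX. Flow cell and treatment are thus partly confounded, and a gene's difference within H77KGDMXX is given below where it is smaller than the pooled one by over 1.5 times.

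In the values as deposited, the antagonist cells differed from blank cells in a modest and mostly upward set of genes. HPSE, which encodes the heparan sulfate-cleaving enzyme heparanase, rose 2.24-fold, and HYI, a hydroxypyruvate isomerase, rose 1.73-fold. The mitochondrial deacetylase SIRT3, the mitochondrial iron importer SLC25A28 and the immediate early transcription factor EGR1 rose 1.8-fold, 1.58-fold and 1.48-fold. ID4, an inhibitor of basic helix-loop-helix transcription factors, fell to 0.592 of its level in blank cells. All folds were computed after adding 1 to each TPM, so those of weakly expressed genes are understated.

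By limma on log2(TPM + 1), with a Benjamini-Hochberg adjusted p under 0.05, 92 of the 821 genes passed, which is 11.2%. With the antagonist, 85 genes were higher (10.4%) and 7 were lower (0.853%), against 42 and 23 after upper quartile scaling, 31 and 11 after quantile normalization and 37 and 25 after median of ratios scaling of the listed genes. The counts of the gene lists below stand against these 10.4% and 0.853% of all tested genes. The median log2 fold change was 0.52 over the 85 higher genes, -0.44 over the 7 lower genes and 0.12 over all 821. Typical precision was a 95% interval of 0.25 to either side of a log2 fold change, or 1.19-fold. The 3 antagonist libraries lay above all 3 blank libraries in 217 of 821 genes (26.4%) and below them all in 64 (7.8%), together 281 genes (34.2%). Among the genes that passed, the groups did not overlap in 84 of 85 higher and 7 of 7 lower genes, the exception being FAM91A1, which was at 0.29 within H77KGDMXX. With flow cell as a term in the model no gene passed, the smallest adjusted p being 0.0813, and 198 genes had an unadjusted p under 0.05, against 251 without the term. Without blank replicate 1 the count was 215, and without any 1 of the other antagonist and blank libraries it was 2 to 7. Only HYI and HPSE passed without each of the 9 libraries in turn. Antagonist minus agonist, which uses the same antagonist libraries, passed in 221 of the 821 genes (26.9%), 207 of them higher with the antagonist (25.2%), and is given below as a side value for single genes.

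**Figure D1:**
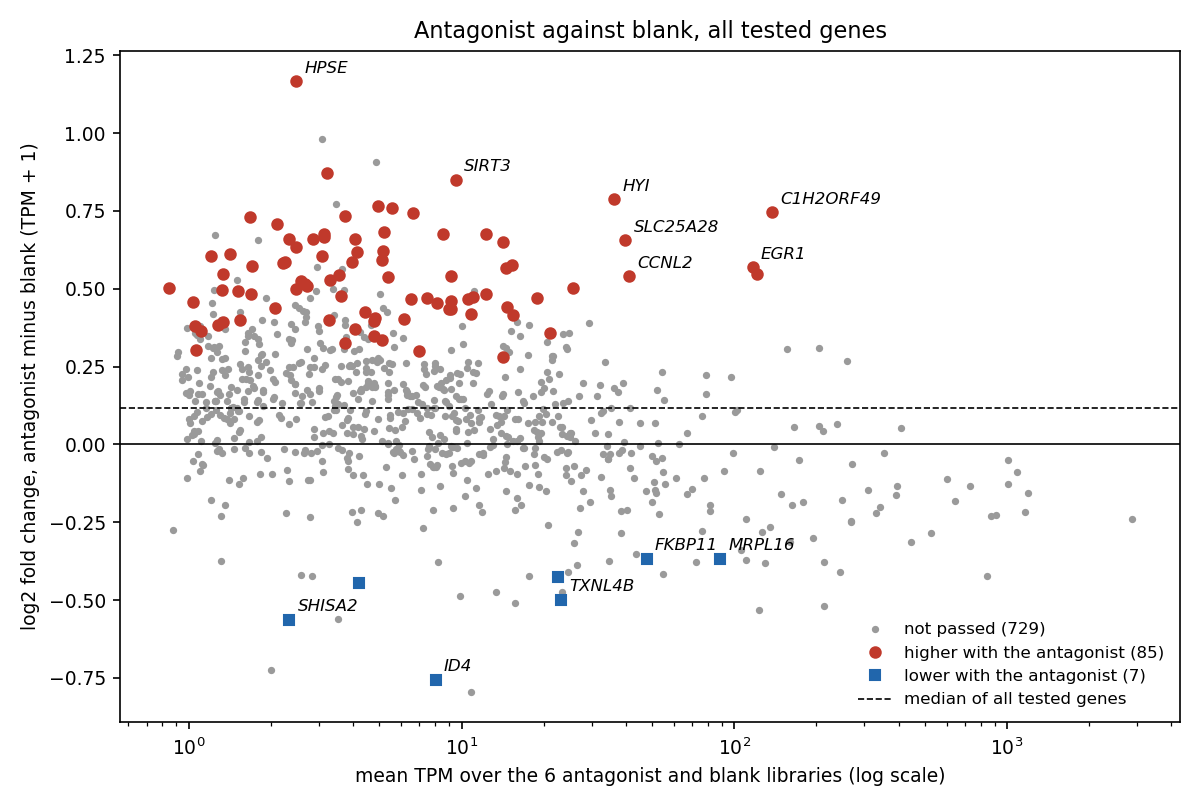
Log2 fold change of antagonist minus blank on TPM + 1 (vertical axis) against mean TPM over the 6 libraries (log axis) for all 821 tested genes. The 85 genes that passed and were higher are red, the 7 that were lower are blue, and the dashed line marks the median of all tested genes at 0.12. Most red points lie at low levels, while the points on the far right lie mainly below 0.

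Among secreted factors and signalling genes, EGR1 is a zinc finger factor that responds within minutes to GnRH and gonadotropins in pituitary and ovarian cells. EGR1 had 142, 140 and 137 TPM with the antagonist, against 100, 92.5 and 88.9 TPM in blank cells. All 3 antagonist libraries lay close together and above every blank library, and the difference passed with a log2 fold change of 0.57 ± 0.09 (SE, limma adjusted p = 0.0190). EGR1 was the only 1 of 6 tested immediate early genes to pass. JUN, which pairs with FOS in the AP-1 factor and was named after its values were seen, had 1034, 1176 and 953 TPM with the antagonist and 1043, 1118 and 1195 TPM in blank cells (-0.09 ± 0.13, adjusted p = 0.678). The median of the 6 genes was -0.08, below the 0.12 of all genes. With quantile normalization it was 0.02, above the all-gene -0.0044.

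Of 4 tested growth factor genes, 3 rose. PDGFA, a platelet-derived growth factor chain, had 12.6, 11.8 and 14.6 TPM with the antagonist, against 10.3, 8.87 and 8.09 TPM in blank cells, and rose by 0.47 ± 0.11 (log2, limma adjusted p = 0.0359). VEGFA, the main angiogenic factor of growing follicles, had 3.92, 4.67 and 4.48 TPM with the antagonist and 3.69, 2.64 and 2.34 TPM in blank cells. VEGFA rose by 0.48 ± 0.13 with an adjusted p of 0.0481, but its highest blank library, the one on the shared flow cell, came close to the antagonist values, and the difference within that flow cell was 0.15. MANF, a secreted protein of the endoplasmic reticulum stress response, rose by 0.44 ± 0.12 (adjusted p = 0.0485) and differed by 0.19 within the shared flow cell. MANF had 9.86, 10.1 and 11.4 TPM with the antagonist, 10.4, 9.93 and 9.77 TPM with the agonist and 9.21, 7.31 and 6.16 TPM in blank cells. Antagonist and agonist libraries lay at like levels, and antagonist minus agonist was 0.05 (adjusted p = 0.736). ANGPTL4, an inhibitor of lipoprotein lipase, was named after its values were seen and did not pass at 0.31 ± 0.10 (adjusted p = 0.0597). Its antagonist values of 214, 234 and 232 TPM all exceeded its blank values of 172, 196 and 181 TPM. Such a lack of overlap was seen in 26.4% of all tested genes.

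ID4 belongs to the small family of proteins that bind and silence basic helix-loop-helix factors and is a common target of BMP signalling. Its level was 5.52, 5.60 and 6.01 TPM with the antagonist, against 10.9, 11 and 9.23 TPM in blank cells. The 3 antagonist libraries were tight and well below all blank libraries, and ID4 fell by 0.76 ± 0.17 in log2 units (limma adjusted p = 0.0314), the largest fall among the 7. Its value was -1.02 with the flow cell term and -0.81 within H77KGDMXX. The agonist libraries were spread, at 10.8, 11.5 and 6.63 TPM. ID4 was the only 1 of 3 tested members of the activin, BMP and TGF-beta list to pass. Its other members were FST at 0.07 ± 0.09 (adjusted p = 0.633) and BMP4 at 0.03 ± 0.14 (adjusted p = 0.902), both named after their values were seen. SHISA2, known for restraining the maturation of Wnt and FGF receptors, was at 2.11, 1.75 and 1.25 TPM with the antagonist and 2.77, 2.86 and 3.25 TPM in blank cells, and fell by 0.56 ± 0.16 in log2 units (adjusted p = 0.0481).

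The innate immunity list had 2 of 11 tested members higher, with a median of 0.04, the TNF receptor TNFRSF1B at 0.47 ± 0.13 (adjusted p = 0.0481) and the interleukin-1 receptor kinase IRAK4 at 0.48 ± 0.12 (adjusted p = 0.0401). IRAK4 had 14.0, 15.3 and 14.1 TPM with the antagonist, against 12.1, 8.45 and 9.94 TPM in blank cells. The oncostatin M receptor gene OSMR rose by 0.66 ± 0.16 (adjusted p = 0.0400), with 2.73, 3.18 and 3.25 TPM with the antagonist and 2.46, 1.23 and 1.18 TPM in blank cells, where blank replicate 1 lay far above the other blank libraries. OSMR was at 0.46 with the flow cell term and at 0.20 within H77KGDMXX, and IRAK4 was at 0.20 within H77KGDMXX. PIK3CG, a catalytic subunit of phosphoinositide 3-kinase, was the only 1 of 24 tested kinases and phosphatases to pass, below the 10.4% of all genes. It reached the rule for testing through the antagonist libraries alone, so no test is given for it, at 1.31, 1.27 and 1.27 TPM with the antagonist and 0.893, 0.878 and 0.777 TPM in blank cells. PLA2G4A, the phospholipase that releases arachidonic acid for prostaglandin synthesis, rose by 0.47 ± 0.12 (adjusted p = 0.0401), with 7.94, 7.41 and 7.88 TPM in antagonist cells and 6.46, 4.83 and 4.81 TPM in blank cells, and a difference of 0.26 within H77KGDMXX.

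**Figure D2:**
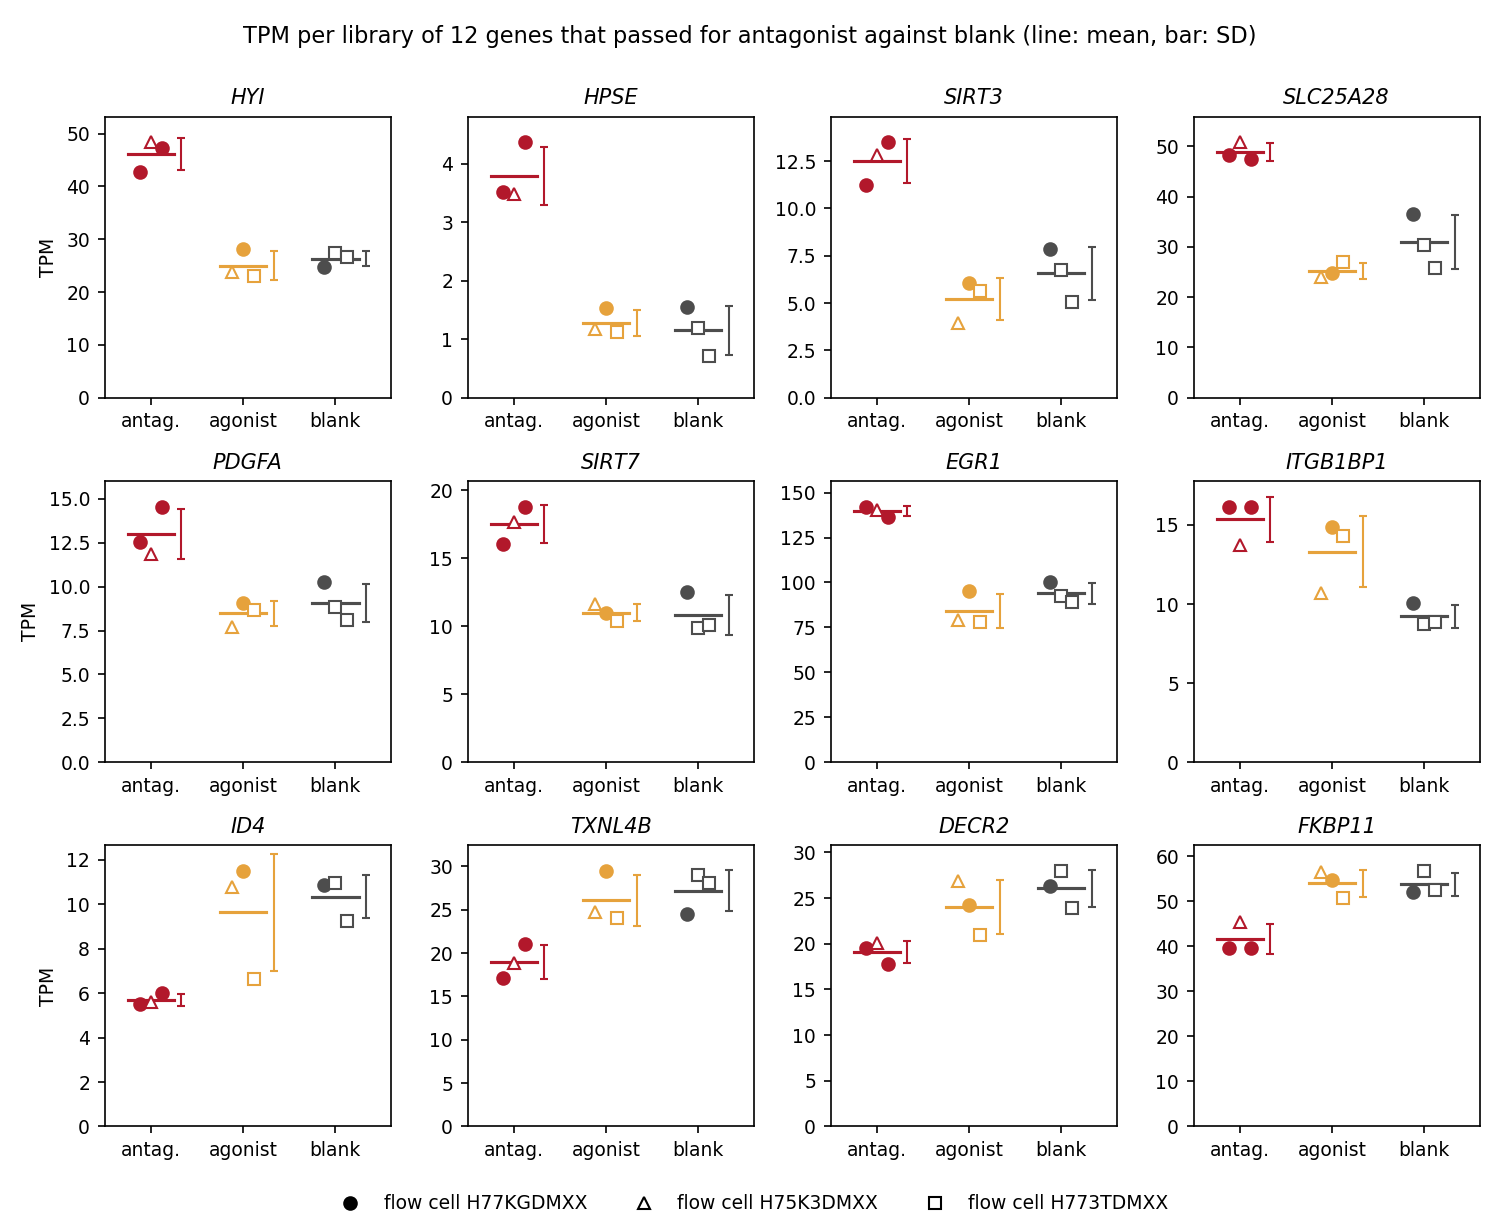
TPM in each library for 12 genes that passed for antagonist against blank, with 3 antagonist, 3 agonist and 3 blank libraries per panel; the line is the group mean, the bar is 1 SD, and the symbol gives the flow cell. In HYI, HPSE and EGR1 the antagonist points stand above every other point, and in ID4, TXNL4B and DECR2 they lie below every blank point. Blank replicate 1, the filled grey circle, is the highest blank point for HPSE, SIRT3, SLC25A28, SIRT7, EGR1, ITGB1BP1 and PDGFA.

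At the cell surface and in the matrix, HPSE had 3.52, 3.48 and 4.37 TPM with the antagonist, against 1.55, 1.2 and 0.718 TPM in blank cells. Heparanase trims the heparan sulfate chains that hold growth factors in the matrix. The lowest antagonist library was more than 2-fold above the highest blank library, and HPSE rose by 1.17 ± 0.15 (log2, limma adjusted p = 0.00411), the largest rise of the 85. HPSE passed in 21 of 22 other ways of analysis, all but the flow cell term, which left it at 1.02, and antagonist minus agonist was 1.07 (adjusted p = 0.00350). HGSNAT, a lysosomal enzyme that acts on heparan sulfate as it is broken down, rose by 0.46 ± 0.10 (adjusted p = 0.0314), with 10.4, 10.5 and 11.3 TPM with the antagonist and 8.51, 7.54 and 6.57 TPM in blank cells.

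ITGB1BP1, which binds the tail of integrin beta 1, and the tetraspanin TSPAN2 were the 2 of 14 tested adhesion and actin genes that passed. ITGB1BP1 was at 16.2, 13.7 and 16.1 TPM with the antagonist, against 10.1, 8.72 and 8.88 TPM in blank cells, and rose by 0.68 ± 0.13 (adjusted p = 0.0219). Agonist libraries 2 and 3, at 14.9 and 14.3 TPM, lay among the antagonist libraries, and antagonist minus agonist was 0.20 (adjusted p = 0.229). The adhesion list's median was 0.17. Fibronectin (FN1) was the only 1 of 5 tested matrix genes to pass, at 2.13, 2.13 and 2.43 TPM with the antagonist, against 1.64, 1.2 and 0.752 TPM in blank cells (0.57 ± 0.15, adjusted p = 0.0401). Within H77KGDMXX the difference was 0.31 for FN1 and 0.39 for TSPAN2. ABI3BP, a secreted matrix-associated protein that none of the lists held, was at 1.16, 1.13 and 1.19 TPM with the antagonist and 0.627, 0.490 and 0.463 TPM in blank cells. It reached the rule for testing through the antagonist libraries alone, so no test is given for it.

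In carbohydrate metabolism 2 of 4 tested genes rose. HYI had 42.7, 48.4 and 47.4 TPM with the antagonist, against 24.8, 27.5 and 26.7 TPM in blank cells, so that the groups were separated by a wide gap. It rose by 0.79 ± 0.10 (log2, limma adjusted p = 0.00411) and passed in 22 of 23 other ways of analysis. Blank replicate 1 was the lowest blank library here, the value within H77KGDMXX was 0.83, and the agonist libraries were at 23.8, 28.1 and 23 TPM. GYG1 encodes glycogenin, which primes glycogen synthesis. GYG1 had 8.46, 8.32 and 8.68 TPM with the antagonist and 6.68, 3.83 and 3.91 TPM in blank cells (0.74 ± 0.18, adjusted p = 0.0359), with a difference of 0.32 within the shared flow cell.

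Among lipid genes, DECR2, a peroxisomal reductase needed to oxidise polyunsaturated fatty acids, fell, with 19.6, 20 and 17.7 TPM with the antagonist, against 26.3, 28.0 and 23.9 TPM in blank cells (-0.43 ± 0.11, limma adjusted p = 0.0400). It was the only 1 of 6 tested genes on the lipid list, and of 6 on the peroxisome list, to pass. The medians of these lists were 0.18 and 0.14. Lipid enzyme genes outside these lists passed and were higher, among them ACSF2 (0.41 ± 0.11, adjusted p = 0.0446) and ACP6 (0.61 ± 0.15, adjusted p = 0.0400). They were named because they passed, and how many other such genes were tested is not given here. Within H77KGDMXX ACP6 was at 0.26, and the value of ACSF2 is not given here. DHCR7, the last enzyme of cholesterol synthesis, and GGPS1, which makes geranylgeranyl diphosphate, were the tested members of the sterol list and did not pass, at 0.17 ± 0.14 (adjusted p = 0.444) and 0.29 ± 0.09 (adjusted p = 0.0621). Outside the lists, PCYT2, an enzyme of phosphatidylethanolamine synthesis, was at 24.1, 22.1 and 25.3 TPM with the antagonist and 19.6, 19.0 and 16.6 TPM in blank cells (0.36 ± 0.09, adjusted p = 0.0401).

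The redox and iron list had 3 of 11 tested members higher and none lower, with a median of 0.16. SIRT3 had 11.2, 12.8 and 13.5 TPM with the antagonist, against 7.87, 6.76 and 5.07 TPM in blank cells, and rose by 0.85 ± 0.17 (limma adjusted p = 0.0259). SLC25A28, which encodes mitoferrin 2, had 48.3, 50.8 and 47.4 TPM with the antagonist and 36.6, 30.4 and 25.8 TPM in blank cells (0.66 ± 0.12, adjusted p = 0.0190). In both genes every antagonist library exceeded every blank library, and blank replicate 1 was the highest blank library. Their differences within H77KGDMXX were 0.59 and 0.38. The ferritin heavy chain gene FTH1, at 1118, 1108 and 1162 TPM with the antagonist and 1138, 1302 and 1346 TPM in blank cells, did not pass (-0.16 ± 0.12, adjusted p = 0.413), and neither did catalase (CAT) at 0.30 ± 0.12 (adjusted p = 0.139) or the cysteine desulfurase NFS1 at 0.22 ± 0.11 (adjusted p = 0.191). These 3 were named after their values were seen.

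Other genes of mitochondrial proteins went both ways. Of 14 tested import, carrier and assembly genes 3 rose, namely SLC25A28, the coenzyme A carrier SLC25A42 (0.71 ± 0.18, adjusted p = 0.0401) and SCO1, which delivers copper to cytochrome c oxidase (0.37 ± 0.10, adjusted p = 0.0450). Of 10 tested mitochondrial ribosomal genes MRPL16 fell, with 80.2, 78.0 and 74.0 TPM with the antagonist, against 98.1, 109 and 93.8 TPM in blank cells (-0.37 ± 0.09, adjusted p = 0.0359). The agonist libraries of MRPL16, at 85.2, 90.5 and 79.9 TPM, lay below all blank libraries, and the lowest was within the antagonist range. None of 13 tested genes of oxidative phosphorylation passed, and their median was -0.05. Of these, ATP5J2, a subunit of ATP synthase, had 181, 178 and 164 TPM with the antagonist and 204, 210 and 230 TPM in blank cells (-0.30 ± 0.09, adjusted p = 0.0578). Outside those lists, COQ2, which attaches the side chain of coenzyme Q, had 4.35, 4.48 and 3.45 TPM with the antagonist and 2.63, 1.97 and 1.96 TPM in blank cells (0.68 ± 0.16, adjusted p = 0.0359). The RNA methyltransferases TRMT61B and MRM1 and the release factor MTRF1L of mitochondrial translation also passed, at 0.58 ± 0.10 (adjusted p = 0.0190), 0.39 ± 0.10 (adjusted p = 0.0401) and 0.40 ± 0.11 (adjusted p = 0.0481). These genes, like COQ2, were named because they passed. How many other genes of mitochondrial proteins outside those lists were tested is not given here. The differences of COQ2 and TRMT61B within H77KGDMXX were 0.43 and 0.37.

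Cytosolic ribosomal protein genes had a median of -0.15 over 14 tested, the lowest among the lists with 5 or more tested genes (-0.34 with median of ratios scaling and -0.00021 with quantile normalization), and 2 of them rose. With quantile normalization the cytosolic list was no longer among the lowest, and its median lay above the all-gene -0.0044. Lists below it then included mitochondrial ribosome (-0.12), DNA repair (-0.09), proteasome (-0.08) and oxidative phosphorylation (-0.07). With the flow cell term the mitochondrial ribosomal list (-0.16) and the immediate early list (-0.12) were lower than the cytosolic list (-0.09). RPL22 had 15.9, 18.2 and 18.3 TPM with the antagonist and 15.1, 10.6 and 9.26 TPM in blank cells (0.57 ± 0.15, limma adjusted p = 0.0450). RPL11 had 5.35, 5.68 and 4.52 TPM with the antagonist and 3.52, 2.52 and 2.74 TPM in blank cells (0.66 ± 0.13, adjusted p = 0.0262). By level these 2 stood far below members such as RPL7 at 942, 965 and 971 TPM with the antagonist and 973, 1073 and 1099 TPM in blank cells. They were not alone in this. Over the 6 libraries RPS20, RPL37A and RPS28 had means of 1.53, 1.65 and 13.4 TPM, against 4.05 for RPL11 and 14.6 for RPL22. Reads of near-identical gene copies could be split in counting, so all of these are uncertain. Within H77KGDMXX the difference was 0.17 for RPL22 and 0.39 for RPL11. RPL30 had 467, 479 and 471 TPM with the antagonist, against 520, 610 and 603 TPM in blank cells, and did not pass (-0.29 ± 0.08, adjusted p = 0.0545). RPL7, RPL30, RPS20, RPL37A and RPS28 were named after their values were seen. Without blank replicate 1, 2 genes of the family were higher and 3 lower.

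Of 12 tested translation genes 2 rose, EIF4G2, a scaffold for cap-independent initiation, at 0.44 ± 0.12 (adjusted p = 0.0481) and EIF4ENIF1, which carries the cap-binding protein eIF4E into the nucleus, at 0.38 ± 0.11 (adjusted p = 0.0481) and at 0.23 within H77KGDMXX. In the endoplasmic reticulum list of 8, MANF rose and FKBP11, a prolyl isomerase of the secretory pathway, fell. FKBP11 had 39.6, 45.4 and 39.7 TPM with the antagonist, against 52.1, 56.8 and 52.6 TPM in blank cells, 3 low against 3 high values without overlap (-0.37 ± 0.09, adjusted p = 0.0359). Its agonist values of 56.5, 54.9 and 50.7 TPM lay near the blank values, and antagonist minus agonist was -0.37 (adjusted p = 0.0170). None of 6 proteasome genes passed, with a median of -0.04, and neither did any of the 9 genes on the cell cycle list, with a median of 0.09. Its cyclin gene CCND1, named after its values were seen, was at 0.10 ± 0.10 (adjusted p = 0.515). E2F8 and FBXO5, which other lists below held, passed and were higher.

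Among nuclear regulators, 6 of 29 tested DNA-binding factors were higher and 1, ID4, lower. The 6 were EGR1, the RUNX partner CBFB (0.62 ± 0.17, adjusted p = 0.0481), the cell cycle repressor E2F8 (0.45 ± 0.13, adjusted p = 0.0481), the zinc finger genes ZNF341 and ZNF276, and TCF25, known for its part in ribosome quality control rather than for binding DNA. THAP1, a zinc finger factor outside the list, fell, with 3.81, 3.43 and 3.01 TPM with the antagonist, against 5.01, 4.94 and 5.02 TPM in blank cells (-0.44 ± 0.09, adjusted p = 0.0309). The chromatin list had 3 of 7 tested members higher with a median of 0.21. They were SIRT3, whose protein works in mitochondria, the nucleolar deacetylase SIRT7 and MORF4L1, a reader of methylated histone H3. SIRT7 had 16.0, 17.7 and 18.8 TPM with the antagonist and 12.6, 9.88 and 10.1 TPM in blank cells (0.65 ± 0.11, adjusted p = 0.0190). Within H77KGDMXX the differences of CBFB, E2F8, ZNF341 and MORF4L1 were 0.34, 0.19, 0.25 and 0.26.

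In RNA processing, 2 of 29 tested genes were higher and 1 lower. TXNL4B, a thioredoxin-like relative of a spliceosome protein, had 17.1, 18.8 and 21.0 TPM with the antagonist, against 24.6, 29.0 and 28.0 TPM in blank cells, and fell by 0.50 ± 0.11 in log2 units (limma adjusted p = 0.0340). TRMT61B and NOL9, an RNA kinase of ribosomal RNA processing, rose, NOL9 by 0.59 ± 0.14 (adjusted p = 0.0359). Outside the list, the cyclin CCNL2, which works with splicing kinases, had 49.3, 47.2 and 49.3 TPM with the antagonist and 43.2, 30.2 and 27.7 TPM in blank cells (0.54 ± 0.14, adjusted p = 0.0401), and blank replicate 1 was nearer to the antagonist libraries than to the other blank libraries. NOB1, a nuclease that matures small-subunit ribosomal RNA, had 2.98, 3.56 and 2.06 TPM with the antagonist and 1.79, 1.69 and 1.2 TPM in blank cells (0.58 ± 0.15, adjusted p = 0.0401). Of 6 tested DNA repair genes FANCA, of the Fanconi anaemia core complex, was past the threshold, with 1.08, 1.27 and 1.63 TPM with the antagonist, against 0.850, 0.768 and 0.727 TPM in blank cells, but it was let in by the antagonist libraries alone and no test is given for it. The differences of NOL9, CCNL2 and NOB1 within H77KGDMXX were 0.23, 0.19 and 0.32. None of 9 tested genes of the general transcription machinery passed.

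The list of microtubule, motor and cilium genes had 5 of 16 tested members higher, none lower and the highest median among the lists with 5 or more tested genes, 0.29, with 14 of 16 members above the median of all genes. Those that passed were the dynactin subunits DCTN6 and DCTN3, MAPT (the microtubule-binding protein tau) and the centrosome-associated CEP95 and CCDC84. DCTN3 had 3.54, 2.86 and 3.25 TPM with the antagonist, against 2.09, 1.40 and 1.69 TPM in blank cells (0.63 ± 0.11, limma adjusted p = 0.0190). DCTN6 had 5.67, 7.09 and 7.03 TPM with the antagonist and 4.69, 2.90 and 3.73 TPM in blank cells (0.68 ± 0.17, adjusted p = 0.0392), and MAPT was at 0.54 ± 0.15 (adjusted p = 0.0481). Within H77KGDMXX the differences of DCTN6, MAPT and CCDC84 were 0.36, 0.27 and 0.28. DCTN1, the large dynactin subunit, named after its values were seen, did not pass at 0.21 ± 0.08 (adjusted p = 0.121). The list's median was 0.25 with the flow cell term and 0.14 with median of ratios scaling.

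The 35 tested vesicle traffic genes had a median of 0.07, below the 0.12 of all genes. With quantile normalization it was 0.0084, above the all-gene -0.0044. Of the 35 genes, 5 were past the threshold, all higher. Beside the dynactin subunits these were VPS11, a core subunit of the tethering complexes of late endosomes and lysosomes, the sorting nexin SNX30 and ARL14EP. VPS11 had 1.8, 1.51 and 1.67 TPM with the antagonist and 0.985, 0.772 and 0.520 TPM in blank cells, and since the antagonist libraries alone let it in, no test is given for it. Of 35 tested ubiquitin genes 4 rose and none fell, a share near the 10.4% of all genes, with a median of 0.16. They were DDA1, a part of cullin 4 ligases, KLHL30, the modifier SUMO3 and FBXO5, an inhibitor of the anaphase-promoting complex. DDA1 had 8.30, 7.08 and 6.21 TPM with the antagonist, against 4.99, 4.05 and 2.7 TPM in blank cells (0.76 ± 0.16, adjusted p = 0.0314). KLHL30 had 9.82, 10.7 and 11.7 TPM with the antagonist and 7.78, 5.88 and 5.53 TPM in blank cells (0.68 ± 0.14, adjusted p = 0.0314). TPRA1, a predicted membrane receptor that the autophagy and lysosome list held, was its only 1 of 10 tested members to pass (0.77 ± 0.18, adjusted p = 0.0359). Transporters gave 2 of 15, the mitochondrial carriers SLC25A28 and SLC25A42 already described. The differences of DDA1, KLHL30, SUMO3 and TPRA1 within H77KGDMXX were 0.45, 0.42, 0.20 and 0.48.

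**Figure D3:**
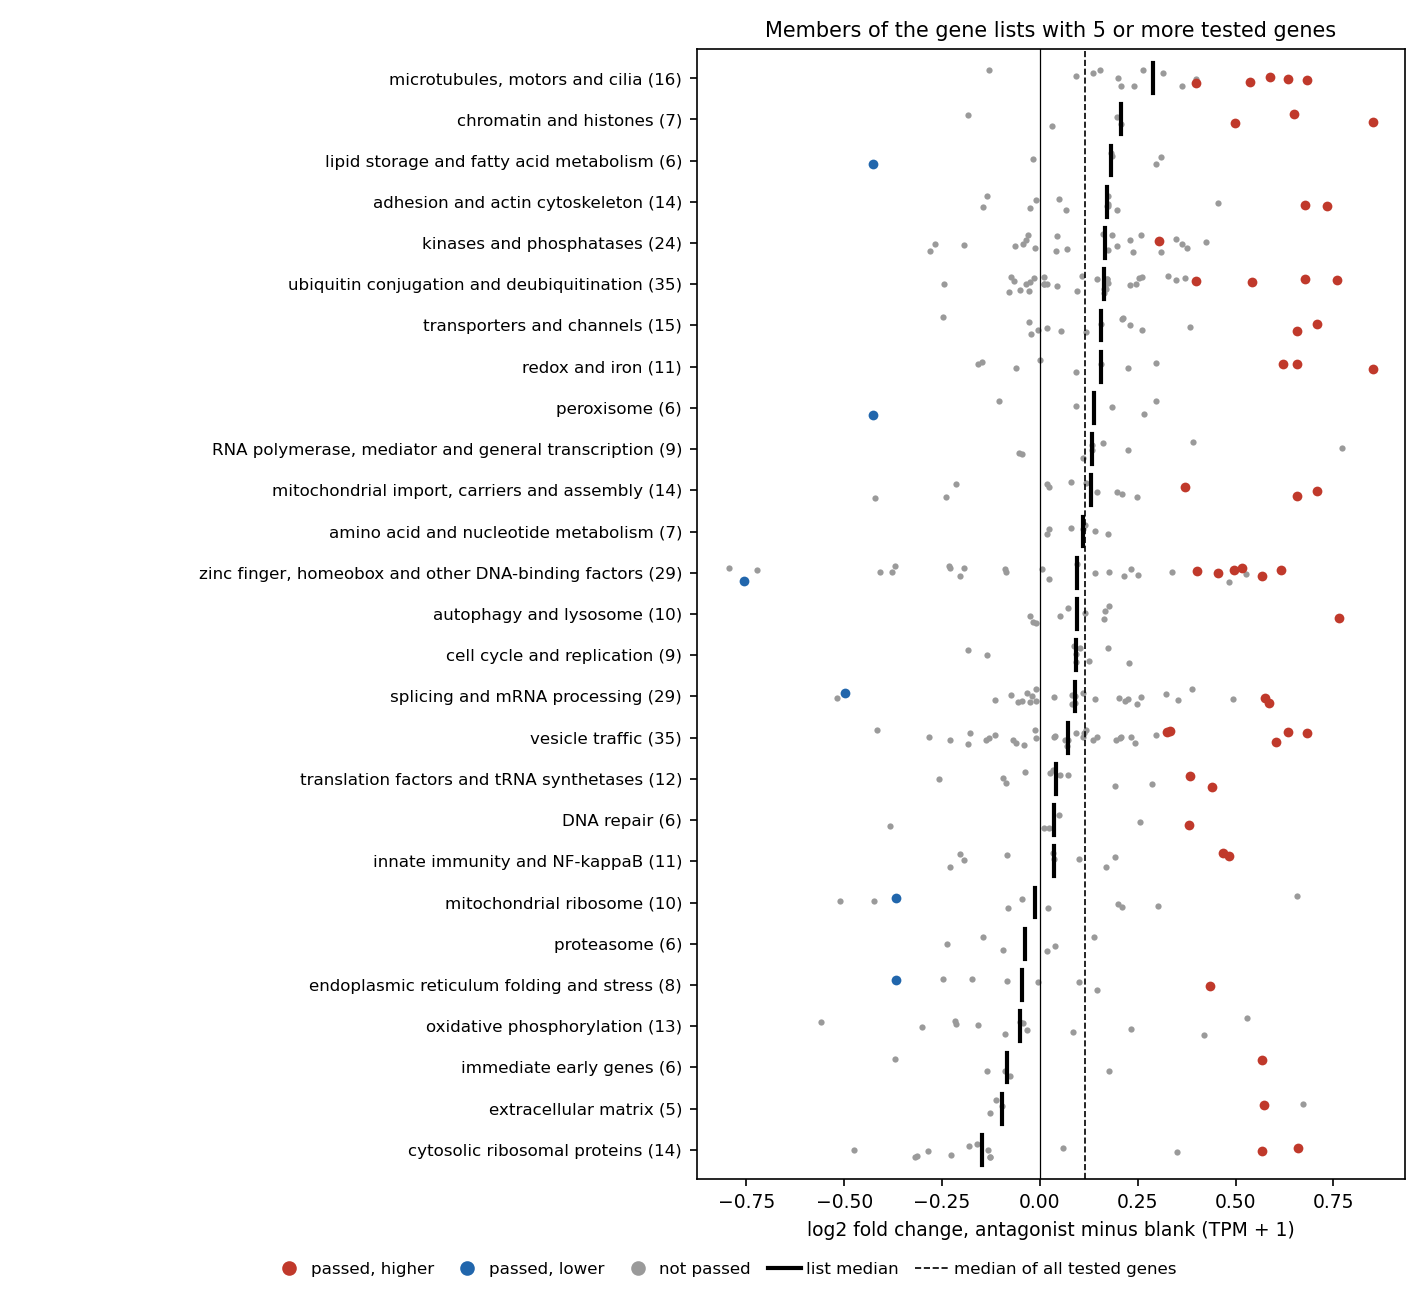
Log2 fold change of antagonist minus blank on TPM + 1 (horizontal axis) of each tested member of the gene lists with 5 or more tested genes; the number in brackets is the tested members, the thick tick is the list median and the dashed line the median of all tested genes at 0.12. Microtubule, motor and cilium genes have the highest median at 0.29 and cytosolic ribosomal protein genes the lowest at -0.15, while genes that passed (red higher, blue lower) are scattered over most lists; with median of ratios scaling 15 of the 20 medians above 0 lay below it.

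Of the 92 genes, 49 were in at least 1 of the lists and 43 in none. C1H2ORF49, which encodes the little-studied protein ashwin, was the most abundant gene to pass, with 169, 162 and 180 TPM with the antagonist, against 142, 88.9 and 81.6 TPM in blank cells (0.75 ± 0.19, adjusted p = 0.0414). Blank replicate 1 stood well above the other blank libraries, and the difference within H77KGDMXX was 0.29. AHSA2, related to an activator of the chaperone HSP90, had 147, 132 and 153 TPM with the antagonist and 115, 88.5 and 92.5 TPM in blank cells (0.55 ± 0.11, adjusted p = 0.0311). DRG2, a GTP-binding protein, was at 2.6, 1.77 and 2.67 TPM with the antagonist and 1.35, 0.950 and 0.746 TPM in blank cells (0.73 ± 0.14, adjusted p = 0.0219). The smallest rise to pass was 0.28 ± 0.08 for HDGFRP2 (adjusted p = 0.0481), with 15.3, 16.7 and 14.9 TPM with the antagonist and 12.4, 12.9 and 12.8 TPM in blank cells.

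In the values as deposited and after median of ratios scaling the median difference varied with expression level. After quantile normalization it did so by less, which that method largely fixes by giving each library the same distribution of values. With the 821 genes split by mean TPM into 4 bins of equal size, from lowest to highest, 24, 29, 23 and 9 genes were higher with the antagonist and 1, 1, 1 and 4 were lower. The median log2 fold change was 0.19, 0.19, 0.09 and -0.03 in the same bins as deposited, 0.07, 0.03, -0.08 and -0.22 after median of ratios scaling, and -0.0067, -0.0073, -0.0066 and 0 after quantile normalization. The genes that were higher had a median level of 4.41 TPM and those that were lower 22.6 TPM, against 6.06 TPM over all tested genes. Of all listed TPM, the 10 most abundant genes held 35.4% to 37.4% with the antagonist and 37.8% to 39.2% in blank cells. Of the most abundant genes, TIMM10, a chaperone of mitochondrial import, had 2383, 2916 and 2580 TPM with the antagonist and 3346, 3085 and 2855 TPM in blank cells, and did not pass (-0.24 ± 0.12, adjusted p = 0.206). Since TPM is a share of each library, a lower share of abundant genes and a higher share of others cannot be told apart, and scaling on the listed genes bears on the direction of the calls. The median of all genes was 0.02 after upper quartile scaling, -0.0044 after quantile normalization and -0.03 after median of ratios scaling, in place of 0.12. The share of calls that were higher was 92.4% in the values as deposited and 64.6%, 73.8% and 59.7% under the 3 scalings. Of the 27 lists with 5 or more tested genes, 20 had a median above 0 as deposited, of which 8, 10 and 15 were below 0 under the same scalings, and those on microtubules, chromatin and lipids stayed above 0 under all 3. The 92 genes kept their sign under every scaling and every other way of analysis run. For 91 of the 92, lack of overlap between the groups fixes the sign where only the pseudocount, filter or libraries changed. Under a scaling or the flow cell term it does not, though the choice of genes from these same libraries favours the same sign.

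Flow cell was examined gene by gene, since 2 of 3 blank libraries were on a flow cell without antagonist libraries. Over the 85 higher genes the median log2 fold change was 0.44 with the flow cell term and 0.32 within H77KGDMXX (antagonist replicates 1 and 3 minus blank replicate 1), and all 85 were above 0 in each, a direction that their choice from these same libraries all but fixes. Blank replicate 1 was the highest of the 3 blank libraries in 78 of the 85, against 536 of 821, and its log2 value exceeded the mean of the other blank libraries by a median of 0.34 in the 85 genes and 0.14 in all. Between agonist libraries 2 and 3, which were on the same pair of flow cells, the median difference was 0.04 in the 85 genes, 0.20 in the 7 lower genes and 0.07 in all. For the 7 lower genes the median was -0.47 with the term and -0.45 within H77KGDMXX, close to the -0.44 without it, and all 7 were below 0 in each, which their choice all but fixes too. Because only 1 blank library shares a flow cell with antagonist libraries, part of the difference cannot be told apart from flow cell.

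**Figure D4:**
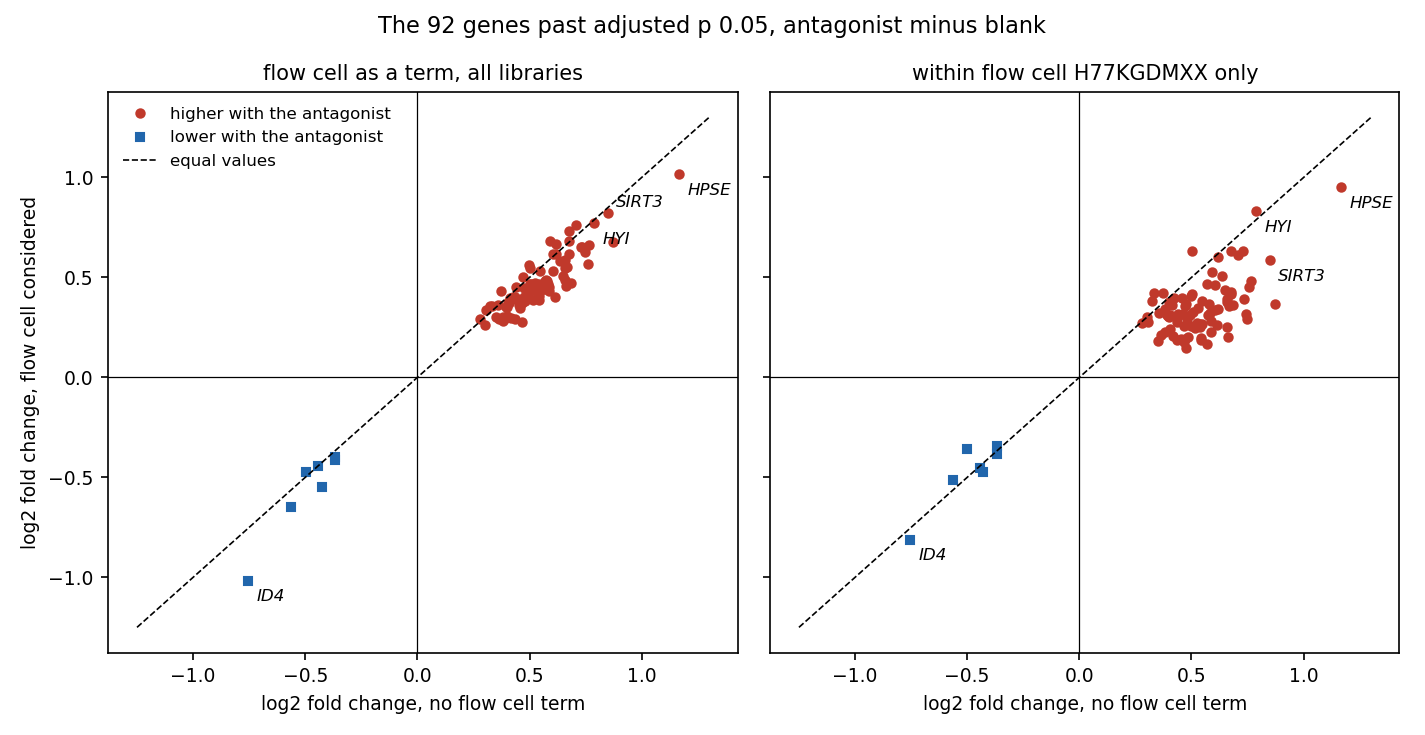
Log2 fold change of antagonist minus blank for the 92 genes that passed, without a flow cell term (horizontal axis) against the value with flow cell as a term (left) or within flow cell H77KGDMXX only (right); the dashed line marks equal values. All 85 higher genes lie above 0 and all 7 lower genes below 0 in both panels, as their choice all but fixes, while most higher genes fall under the dashed line on the right, where HYI is at 0.83 and HPSE at 0.95.

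The named genes also varied in how widely their call held. Of the 92 genes, 28 passed in 15 or more of the 23 other ways of analysis and 22 in 5 or fewer. After HYI and HPSE came EGR1, SIRT7, TRMT61B and ITGB1BP1 with 17 of 23 each. SIRT3, SLC25A28, ID4, TXNL4B and DECR2 passed in 16 of 23, while VEGFA and FAM91A1 passed in 4 of 22 and MANF in 4 of 23.

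**Figure D5:**
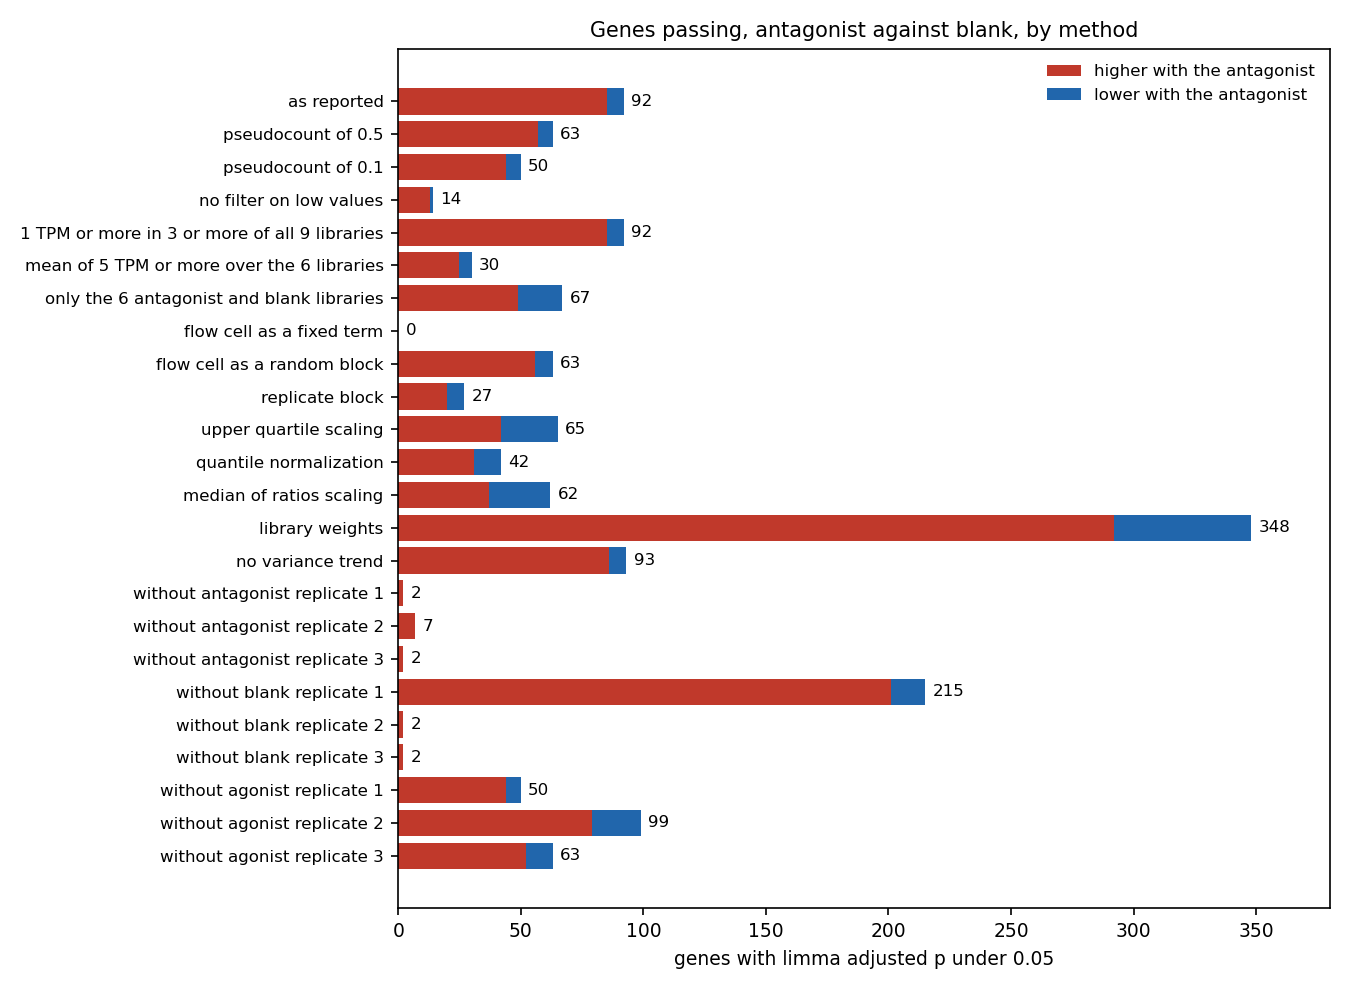
Number of genes with a limma adjusted p under 0.05 for antagonist against blank (horizontal axis), higher in red and lower in blue, in the analysis as reported and in 23 other ways of analysis. The count is 92 as reported, 0 with flow cell as a fixed term, 2 to 7 without any 1 of 5 antagonist and blank libraries, 215 without blank replicate 1 and 348 with library weights.

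Some of the genes that passed lie next to each other. RefSeq's annotation of a Taihu goose assembly, used for gene order, matched 84 of the 92 genes and 765 of the 821, and in it 139 pairs of tested genes were direct neighbours. In 5 pairs both genes passed, in 25 only 1 did and in 109 neither did; with median of ratios scaling both passed in 3. This was looked at after the values were seen and was not tested. All 5 pairs were higher with the antagonist, among them COQ2 with HPSE, PCYT2 with SIRT7, FANCA with ZNF276 and FBXO5 with MTRF1L, and these last 2 pairs overlap. Of the 84 matched genes that passed, 22 overlap a protein-coding neighbour. The share among all tested genes is not given here, so this count cannot be read as a trait of the genes that passed. The use of strand in counting is not stated, so reads of overlapping genes cannot be told apart. ITGB1BP1 overlaps CPSF3 (0.26, adjusted p = 0.109), HGSNAT overlaps POMK (-0.03, adjusted p = 0.892), SCO1 overlaps ADPRM (-0.03, adjusted p = 0.945), and TXNL4B overlaps TRMT10C (0.11, adjusted p = 0.570) and SENP7 (0.16, adjusted p = 0.372), none of which passed.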

How the data were processed

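Per the labels' protocols, RNA isolation used Trizol and library preparation a NEBNext Ultra kit. The authors deposited TPM values for 1371 named genes in 9 libraries. The submitters' processing notes name, in no stated role, StringTie 1.2.2, Cuffdiff, Cufflinks 2.2.1, TopHat2 2.1.0 and CASAVA 1.8.2. Genome build, annotation and strand use: not given in the sources used here. TPM was taken as log2(TPM + 1) and tested with limma 3.58.1 (R 4.3.3), fitting 1 mean per group to all 9 libraries, with empirical Bayes moderation with a variance trend, the contrast antagonist minus blank and Benjamini-Hochberg adjustment over the 821 genes. A count model was not used because TPM is normalized. With 3 libraries in each group, the smallest two-sided p an exact permutation test allows is 0.1. The same fit gave antagonist minus agonist, which shares the antagonist libraries. The fit was tested on simulated data with independent noise in each library and no flow cell effect. That test does not bear on flow cell or scaling. Gene lists were described by counts and medians without a test. Named genes were those past an adjusted p of 0.05, with up to 4 per list. Where a list had none, its 2 genes of highest mean TPM could be named, as could the 6 genes of highest mean TPM. Others, and some of these 6, are marked as named after their values were seen. The members and lists were chosen with earlier results of these data known. The other ways of analysis changed the pseudocount, filter, libraries, flow cell, replicate block, scaling, weights and variance trend. Replicate numbers were not taken as pairs, and whether libraries of the same number share a bird or culture is not known. RefSeq served only for neighbouring genes. Some genes that were tested are not reported here.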

Additional observations from a re-analysis of the deposited data

How the results depend on the processing

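The count of 92 genes (85 higher, 7 lower with the antagonist) was 50 with 44 higher at a pseudocount of 0.1, 14 (13 higher, 1 lower) without a filter on low values over 1371 genes, 8 of them shared, 30 with 25 higher among the 451 genes with a mean of 5 TPM or more, and 49 higher and 18 lower in a fit to the 6 antagonist and blank libraries only. With flow cell as a fixed term it was 0 (0 higher, 0 lower), with 198 genes at an unadjusted p under 0.05, and as a random block 56 were higher. Upper quartile scaling gave 42 higher and 23 lower, quantile normalization 42 in all, 31 higher and 11 lower, median of ratios scaling 37 higher and 25 lower, and library weights 348, 292 higher and 56 lower. Leaving out a library gave 2 (without antagonist replicate 1 or 3 or blank replicate 2 or 3) to 215 (without blank replicate 1), with 2 to 201 higher and 0 to 20 lower. Without agonist replicates 1, 2 and 3 the counts were 50, 99 and 63. The cause of these changes was not tested. With the replicate number as a block, 27 genes passed, 20 higher and 7 lower; deviations of same-numbered antagonist and blank libraries correlated at 0.07, 0.22 and -0.02, so the numbers were not taken as pairs. All 92 genes kept their sign in every alternative run, and 8 passed without the filter. For 91 of the 92, lack of overlap between the groups fixes the sign where only the pseudocount, filter or libraries changed. Under a scaling or the flow cell term it does not, though the choice of genes from these same libraries favours the same sign. A pseudocount of 0.5, the filter over all 9 libraries and the fit without a variance trend gave 63, 92 and 93. Depth is unknown, and 3 libraries a group limit the precision.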

Other observations

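Among the 550 genes under the rule for testing, the 3 antagonist libraries lay above all blank libraries in 94 (17.1%) and below them in 9 (1.64%), and these values were not tested. The genes that follow were chosen after their values were seen. GIF, which encodes the vitamin B12-binding gastric intrinsic factor, was at 1.01, 0.972 and 1.06 TPM with the antagonist, against 0.386, 0.350 and 0.323 TPM in blank cells. TMEM11, a protein of the mitochondrial inner membrane, was at 0.881, 0.795 and 1.12 TPM with the antagonist and 0.402, 0.298 and 0.442 TPM in blank cells. KATNAL2, a relative of the microtubule-severing katanin, was at 1.04, 0.881 and 1.15 TPM with the antagonist and 0.541, 0.526 and 0.460 TPM in blank cells. In the other direction, CD93, a surface protein of endothelial and myeloid cells, was at 0.760, 0.502 and 0.396 TPM with the antagonist, against 1.05, 0.920 and 0.841 TPM in blank cells. HMX3, a homeobox gene, was listed at 0 in all 3 antagonist libraries and at 0.641, 0.199 and 0.185 TPM in blank cells.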
